A study of Drosophila ananassae and Drosophila erecta and Drosophila sechellia with 40 samples.

Results

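The receptors of the ab1 and ab2 sensilla, which are among the large basiconic hairs of the fly antenna, were followed here as 6 genes: Or42b, Or92a, Or10a and Gr10a of ab1, and Or59b and Or85a of ab2. They were taken by name from the tables of all 4 stages, and all 6 are among the 22594 gene names that the 4 tables share. The series holds 40 RNA-seq libraries from wild-type strains of D. sechellia and D. erecta, which specialize on the fruit of a host plant, and of the generalists D. ananassae, D. virilis and D. simulans, with 2 libraries per species and stage. The stages were the antennal disc of the wandering larva in its last instar (3L), the disc 8 hours after puparium formation (p8), the pupal antenna at 40 hours (p40) and the adult antenna (AA). In D. virilis, which develops more slowly, the pupal stages were taken at 10 and 48 hours. A library pooled tissue from about 70 larvae or pupae, or about 300 adults of both sexes roughly a week after eclosion. D. melanogaster, a white-eyed laboratory strain, enters only as the authors' mean at each stage, so its values are given without an error and without a test.

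An olfactory sensillum houses a small, fixed group of receptor neurons, and each neuron expresses a receptor that sets the odours it answers to. The large basiconic sensilla respond mostly to fruit and fermentation odours. In D. melanogaster ab1 is unusual in holding 4 neurons. Its A neuron carries Or42b, a receptor for esters of vinegar and fruit, and its B neuron Or92a, a receptor for diacetyl. Its C neuron detects carbon dioxide through Gr21a and Gr63a, which work without the odorant co-receptor Orco. Its D neuron coexpresses Or10a, a receptor for methyl salicylate and other aromatics, and Gr10a, a neighbouring gene of the gustatory receptor family. In ab2 the A neuron carries Or59b, a receptor for methyl acetate, and the B neuron Or85a, a receptor for ethyl 3-hydroxybutyrate. These roles are known from D. melanogaster. The level of a receptor in a whole antenna depends both on how many neurons express it and on how much RNA each makes, and these cannot be told apart in such samples.

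Values are DESeq2-normalized counts. The tables give species means, from which the 2 library values behind each mean were recovered as whole reads, so the libraries are named by size factor and not by their replicate label. The counts of the libraries of a pair differed 4.63 to 69.9 times as much as counting error allows, so no pair was 1 library deposited more than once. Both mates of a read pair were usually counted, so that most counts are even and a fragment mostly counts as 2 reads. This differed by species. In AA both counts were even for 93.4% of solved values in D. erecta, 89.6% in D. virilis and 88.5% in D. sechellia. The share was 73.9% in D. ananassae and 66.8% in D. simulans. The libraries held 17767648 to 26658372 reads at p8 and at least 11738398 to 23729891 reads at p40. Solved reads, a lower bound of the depth, were 8843528 to 13957252 at 3L and 9252373 to 18570013 in AA. They made up 54.6% to 76.2% and 62.8% to 82.1% of the column totals. Orco, which marks olfactory neurons, was at 44969 for D. sechellia, 43461 for D. erecta, 50964 for D. ananassae, 28702 for D. virilis, 50676 for D. simulans and 44636 for D. melanogaster in AA.

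One of the D. sechellia AA libraries stood apart. It held the photoreceptor genes ninaE (rhodopsin), trp and ninaC at 18752, 2251 and 2748, against 147, 14.5 and 31.1 in the other D. sechellia library. The summed level of the 4 eye markers was 14663 in D. sechellia AA, where all 4 were above 0, against 387 to 7132 in the other species, where trp was at 0 in D. ananassae and norpA and ninaC were at 0 in D. simulans. The yolk protein genes Yp1 and Yp2 were also higher in that library, at 3669 and 3685 against 1702 and 1845. The Johnston's organ gene nompC of the second antennal segment was high in both D. sechellia AA libraries, at 4935 and 4797, and had means of 48.2 to 741 in the other species. The summed levels of the Johnston's organ list (3 of 3 genes above 0) and of the fat body list (4 of 4) were 5381 and 5497 in D. sechellia AA, above the 136 to 2671 and 168 to 2072 of the other species, with only iav at 0 in D. simulans. Maxillary palp receptors summed to 630 in D. sechellia AA, against 52.7 to 1035 in the other species, with 6 of 7 above 0 in D. sechellia and 3 to 6 elsewhere. The part of these tissues in the receptor levels was not tested, but AA differences of D. sechellia are also given without the library rich in eye RNA.

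In AA, the 4 ab1 receptors Or42b, Or92a, Or10a and Gr10a were higher in D. sechellia than in its close relative D. simulans, by 1.27-fold to 2.40-fold. The ab2 receptors Or59b and Or85a did not pass the test in this contrast. In D. erecta 5 of the 6 receptors did not pass the test against D. simulans, and Or59b was lower. In D. virilis Or42b, Or92a and Or59b were lower than in D. simulans. The Gr10a count was 20.6-fold lower in D. virilis, from few reads, while Or10a did not pass the test. Over the 10 pairs of species, 38 of 53 comparisons of a receptor above 0 in both species were called at an adjusted p below 0.05 (limma on log2(value + 1), Benjamini-Hochberg over all genes tested). Over the same pairs 58% of all genes tested were called, so a call as such is common in these data.

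Or42b had 4527 and 4901 normalized counts in D. sechellia libraries, 2539 and 2731 in D. erecta libraries, 1997 and 1659 in D. ananassae libraries, 966 and 1108 in D. virilis libraries, and 2843 and 2670 in D. simulans libraries. The authors' mean in D. melanogaster was 2851. Both D. sechellia libraries thus lay above every other library, and both D. virilis libraries lay below. The log2 difference of D. sechellia minus D. simulans was 0.77 ± 0.11 (SE, limma adjusted p = 0.00067), or 1.71-fold. D. erecta and D. simulans, neighbours in the order of levels, differed by -0.07 (95% interval -0.32 to 0.19, limma adjusted p = 0.659). D. ananassae minus D. simulans was -0.60 (limma adjusted p = 0.00208) and D. ananassae minus D. virilis was 0.81 (limma adjusted p = 0.000236). Relative to Orco or to the other antennal Or genes, the last difference lost its call and its sign, at -0.01 and -0.15. For Orco the species mean was used, so its spread between libraries does not enter any call relative to Orco.

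Or92a, the diacetyl receptor, varied less. It had 4896 and 4728 normalized counts in D. sechellia libraries, 2949 and 3433 in D. erecta libraries, 3577 and 4028 in D. ananassae libraries, 1876 and 1924 in D. virilis libraries, and 3903 and 3652 in D. simulans libraries, with a mean of 3651 for D. melanogaster. D. sechellia was again above and D. virilis below all other libraries, and D. ananassae and D. simulans overlapped. D. sechellia minus D. simulans was 0.35 ± 0.10 (SE, limma adjusted p = 0.0214). This call was lost when the levels were set relative to the other antennal Or genes (0.14, limma adjusted p = 0.370), in limma without the trend (limma adjusted p = 0.0544), and when either D. sechellia library or the second D. simulans library was left out. D. virilis minus D. simulans was -0.99 ± 0.10 (SE, limma adjusted p = 3.41e-05), and this call was lost relative to Orco and to the other antennal Or genes. D. ananassae and D. simulans differed by 0.01 (95% interval -0.22 to 0.24).

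Or10a and Gr10a, the receptor pair of the ab1D neuron, showed the same tiers of species except in D. virilis. Or10a had 1202 and 1210 normalized counts in D. sechellia libraries, 458 and 582 in D. erecta libraries, 948 and 952 in D. ananassae libraries, 484 and 476 in D. virilis libraries, and 496 and 507 in D. simulans libraries. The species fell into a higher pair, D. sechellia and D. ananassae, and a lower trio. On the log2 scale D. sechellia minus D. simulans was 1.27 ± 0.12 (SE, limma adjusted p = 3.79e-05), or 2.40-fold, and D. ananassae minus D. simulans was 0.92 ± 0.12 (SE, limma adjusted p = 0.000186). Within the trio, D. erecta minus D. simulans was 0.04 (95% interval -0.22 to 0.31) and D. virilis minus D. simulans was -0.06 (95% interval -0.33 to 0.20). This last value turned to 0.76 relative to Orco and to 0.90 relative to the other antennal Or genes, both called, and the other antennal Or genes had a median difference of -1.19 in this contrast. Against D. ananassae D. sechellia differed by 0.34 (limma adjusted p = 0.0284) and lost its call when any library of either species was left out.

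Gr10a had 1158 and 1247 normalized counts in D. sechellia libraries, 478 and 642 in D. erecta libraries, 1097 and 1198 in D. ananassae libraries, and 570 and 572 in D. simulans libraries. These levels repeat the 2 tiers of Or10a. In D. virilis Gr10a had only 21.0 and 34.0 normalized counts, from 26 and 28 reads, and no other library came near them. Reads were mapped to each species' own transcriptome and the D. virilis model of Gr10a was not examined. Its part in these low counts was not tested. D. virilis minus D. simulans was -4.37 ± 0.22 (SE, limma adjusted p = 5.63e-07), or 20.6-fold lower, and stayed at -3.55 relative to Orco and at -3.40 relative to the other antennal Or genes. For D. sechellia minus D. simulans it was 1.07 ± 0.22 (SE, limma adjusted p = 0.00398). Both Or10a and Gr10a were listed at 0 in D. melanogaster at all 4 stages. Why they were at 0 in D. melanogaster, where the ab1D neuron is known to express both, was not examined. In the other species a 0 can stand for a gene with no assigned ortholog or for a gene with no reads. The tables do not tell these cases apart, so no fold was formed against a 0.

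Or59b, the ab2A receptor, followed another order of species. It had 6482 and 6561 normalized counts in D. sechellia libraries, 3542 and 3111 in D. erecta libraries, 2733 and 3069 in D. ananassae libraries, 2484 and 2624 in D. virilis libraries, 8449 and 7498 in D. simulans libraries, and a mean of 2254 for D. melanogaster. D. sechellia and D. simulans stood together above the other species, without overlap. D. erecta minus D. simulans was -1.26 ± 0.10 (SE, limma adjusted p = 1.6e-05), or 2.40-fold lower. D. sechellia minus D. simulans was -0.29 ± 0.10 (SE, limma adjusted p = 0.0527) and was called with a filter at 10 or more in some species (limma adjusted p = 0.0495), relative to the other antennal Or genes (-0.49, limma adjusted p = 0.0237) and without the second D. simulans library (-0.37, limma adjusted p = 0.0460). Of the 6 receptors it was the single one whose D. sechellia mean was below that of D. simulans.

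Or85a, the ab2B receptor, was listed at 0 in D. ananassae and D. virilis at every stage. It had 1082 and 1348 normalized counts in D. sechellia libraries, 1265 and 1201 in D. erecta libraries, and 1220 and 1128 in D. simulans libraries. The libraries of the 3 species interleaved. The difference of D. sechellia minus D. simulans was 0.04 (95% interval -0.26 to 0.34), D. erecta minus D. simulans was 0.07 (-0.23 to 0.37) and D. sechellia minus D. erecta was -0.03 (-0.33 to 0.27). The D. melanogaster mean was lower, at 518.

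**Figure D1:**
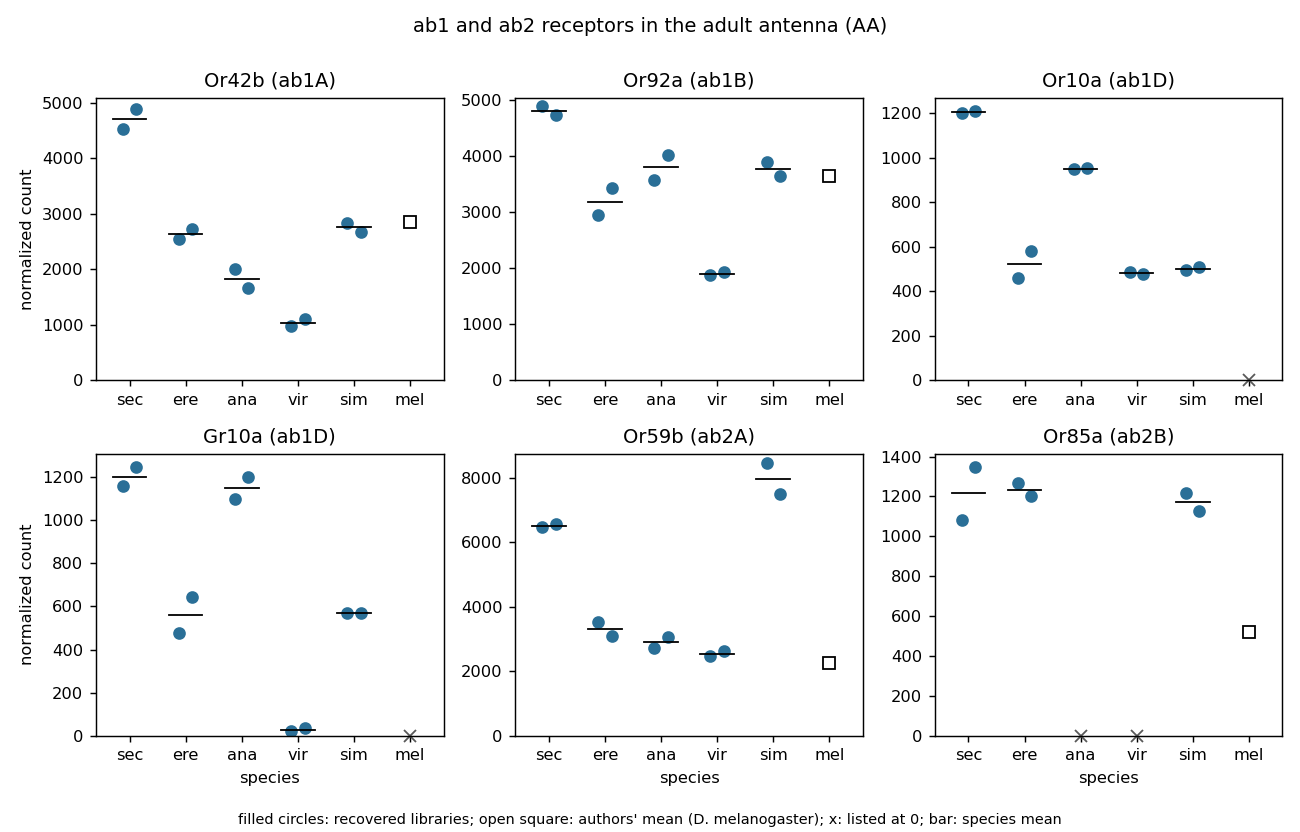
Normalized counts of the 6 receptors in AA, 1 panel per gene, with species on the x axis in the order D. sechellia (sec), D. erecta (ere), D. ananassae (ana), D. virilis (vir), D. simulans (sim) and D. melanogaster (mel). Circles are the recovered libraries, bars their mean, the open square is the authors' mean and a cross is a gene listed at 0. Both D. sechellia libraries are the highest for Or42b, at 4527 and 4901, and Gr10a of D. virilis lies near the axis at 21.0 and 34.0.

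Against D. simulans, 4 of 6 receptors were higher in D. sechellia and none was lower, where 21.8% of all genes were higher and 21% lower. The median log2 difference of the 6 was 0.56, against 0.06 over all genes tested and 0.25 over 29 other antennal Or genes, of which 13 were higher and 3 lower. Or19a and Or19b, Or22a and Or22b, and Or33a and Or33b have identical values in the species with libraries. Each is still a separate entry in the counts, medians and ranks of these genes, here and below. Without the library rich in eye RNA the differences were 0.72 for Or42b, 0.37 for Or92a, 1.26 for Or10a and 1.02 for Gr10a, and the calls of Or42b, Or10a and Gr10a stood (limma adjusted p = 0.00986, 0.00102 and 0.0361). Against D. erecta, 5 of 6 were higher in D. sechellia, where 21.1% of all genes were higher. Those differences were 0.84 for Or42b, 0.60 for Or92a, 1.22 for Or10a, 1.12 for Gr10a and 0.97 for Or59b. All 5 were still called without the library rich in eye RNA, and Or92a lost its call relative to the other antennal Or genes (0.24, limma adjusted p = 0.108). For D. erecta minus D. simulans, 1 of 6 was lower and none was higher, where 26.1% of all genes were lower, and the median of the 6 was -0.05. The comparisons with D. simulans share its libraries and are not independent of each other.

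**Figure D2:**
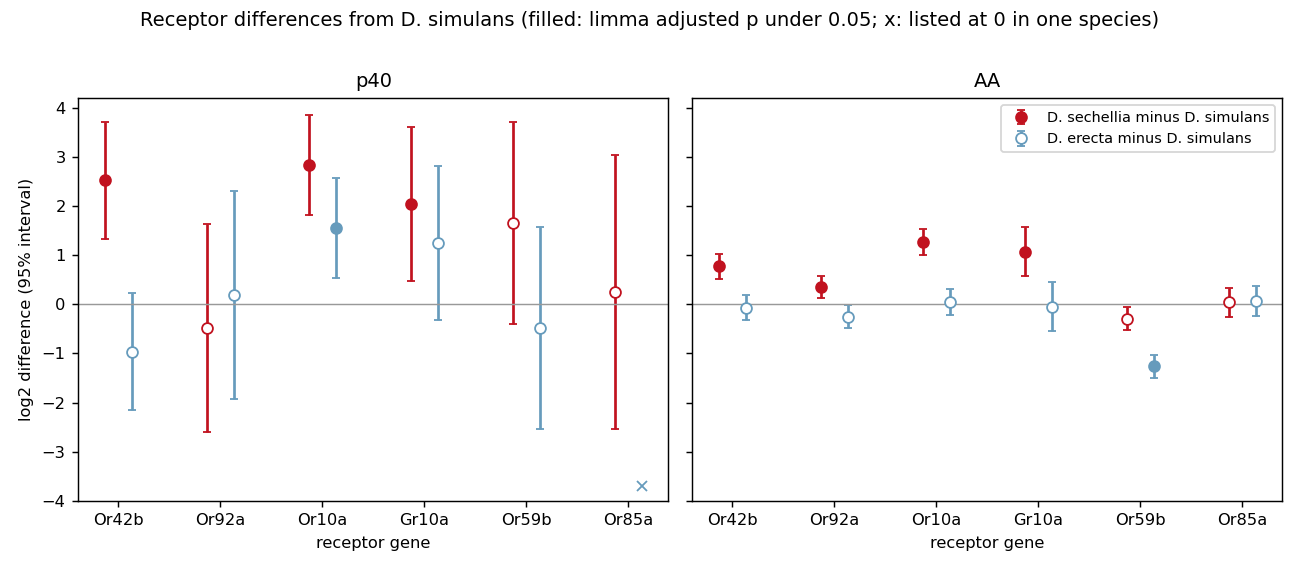
Log2 difference from D. simulans (y axis, with the 95% interval) for each receptor at p40 (left) and in AA (right), for D. sechellia in red and D. erecta in blue. Filled points passed the limma adjusted p threshold, open points did not, and the cross at the bottom, which has no value, marks Or85a of D. erecta, listed at 0 at p40. In AA the 4 red filled points are the ab1 receptors, between 0.35 and 1.27, and the blue filled point is Or59b at -1.26.

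In the most distant species, D. virilis, levels were mostly low. D. virilis was lower than D. simulans in 4 of 5 receptors, where 31.3% of all genes were lower. The median of the 5 was -1.41, against -1.19 over 20 other antennal Or genes. D. virilis was lower than D. sechellia in 5 of 5 (29.2% of all genes were higher in D. sechellia), lower than D. erecta in 4 of 5 (31.8% were higher in D. erecta) and lower than D. ananassae in 4 of 5 (34.1% were higher in D. ananassae). Relative to Orco, the D. erecta calls of Or59b and Or92a and the D. ananassae calls of Or10a, Or42b and Or92a were lost. Relative to the other antennal Or genes, the D. sechellia calls of Or10a, Or59b and Or92a, the D. erecta call of Or92a and the same 3 D. ananassae calls were lost. The other antennal Or genes had medians of 1.17, 1.15 and 1.18 in those 3 contrasts, so D. virilis was low in these genes too. The 5 differences of D. sechellia minus D. virilis were all still called without the D. sechellia library rich in eye RNA. D. ananassae was split: of 5 receptors, Or10a and Gr10a were higher and Or42b and Or59b lower than in D. simulans, where 28.8% of all genes were higher and 27.1% lower. D. sechellia was above D. ananassae in 4 of 5 (31.6% of all genes), with Gr10a at 0.07 (95% interval -0.43 to 0.56). Without the library rich in eye RNA the calls of Or42b (1.31) and Or59b (1.16) stood and those of Or92a (0.37) and Or10a (0.34) did not (limma adjusted p = 0.0504 and 0.103). D. erecta minus D. ananassae gave 1 receptor higher, Or42b at 0.53, and 2 lower, Or10a at -0.88 and Gr10a at -1.05, where 33% of all genes were higher and 30.6% lower.

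Neurons that share a sensillum can be compared within a library, where the size factor cancels. The lengths of the transcripts were not known, so only differences of a ratio between species were read, with the lengths of orthologs taken as alike. A difference in transcript models between species would shift a ratio alike in both libraries. The permutation test cannot tell such a shift from a difference in RNA. The log2 ratio of Or42b over Or92a was -0.11 and 0.05 in D. sechellia libraries, -0.22 and -0.33 in D. erecta libraries, -0.84 and -1.28 in D. ananassae libraries, -0.96 and -0.80 in D. virilis libraries, and -0.46 and -0.45 in D. simulans libraries. The ratio of the counts of the ab1A and ab1B receptors thus differed among species by more than it did between libraries (exact permutation test over 945 pairings of 10 libraries, p = 0.00529, adjusted p = 0.00705 over 4 ratios). Or42b over Or10a was 1.91 and 2.02 in D. sechellia libraries, 2.47 and 2.23 in D. erecta libraries, 1.07 and 0.80 in D. ananassae libraries, 1.0 and 1.22 in D. virilis libraries, and 2.52 and 2.40 in D. simulans libraries (exact permutation p = 0.00529, adjusted p = 0.00705). D. ananassae and D. virilis were the low species in both ratios.

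Within the ab1D pair, Or10a over Gr10a varied between -0.33 and 0.05 in 4 species. It was 0.05 and -0.04 in D. sechellia libraries, -0.06 and -0.14 in D. erecta libraries, -0.21 and -0.33 in D. ananassae libraries, and -0.20 and -0.17 in D. simulans libraries. In D. virilis it was 4.53 and 3.81 (exact permutation p = 0.00106, the smallest the 945 pairings allow, adjusted p = 0.00423). Leaving D. virilis out, the 3 ab1 ratios still passed, with adjusted p of 0.019 for Or42b over Or92a, 0.0254 for Or42b over Or10a and 0.019 for Or10a over Gr10a (exact permutation test over 105 pairings of 8 libraries). Whether the gene models of the neighbouring Or10a and Gr10a share transcript sequence was not analysed here, so reads that could belong to either stay uncertain. Or59b over Or85a in ab2 was 2.58 and 2.28 in D. sechellia libraries, 1.49 and 1.37 in D. erecta libraries, and 2.79 and 2.73 in D. simulans libraries. With 6 libraries the exact permutation test cannot go below p = 0.0667, which it reached.

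**Figure D3:**
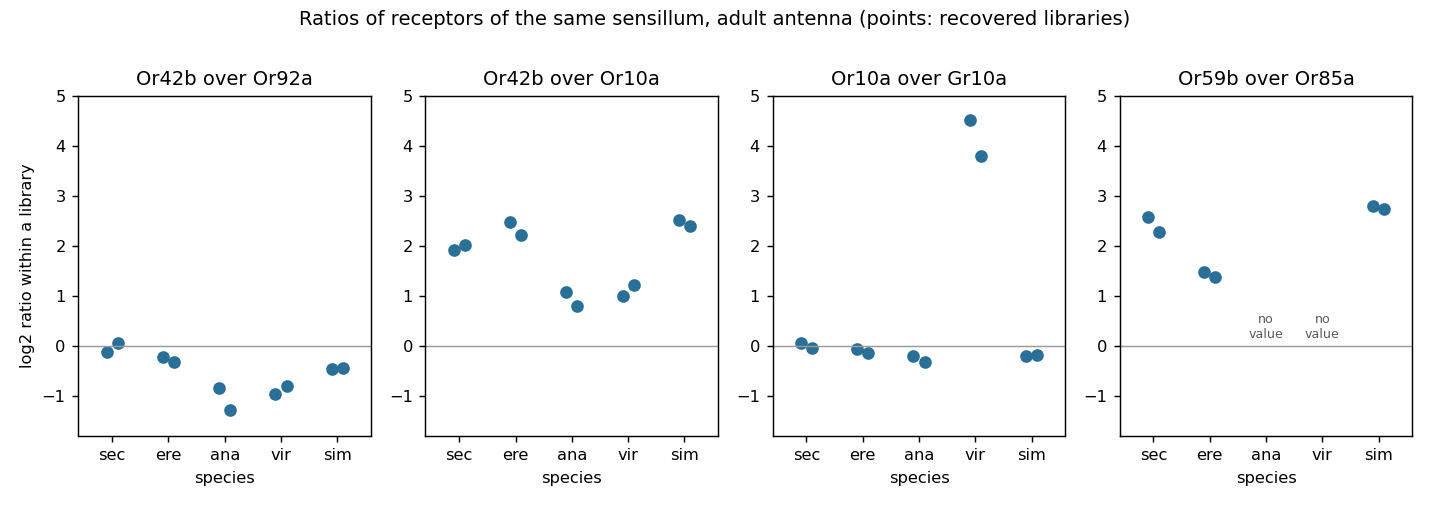
Log2 ratio of receptors of the same sensillum within each recovered AA library (y axis) by species (x axis), 1 panel per ratio and 1 point per library. Or10a over Gr10a lies between -0.33 and 0.05 in every species but D. virilis, whose points are at 4.53 and 3.81, and Or59b over Or85a has no value in D. ananassae and D. virilis.

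At 3L and p8 the receptors were barely detected. Over all species the highest mean was 21.5 normalized counts at 3L, of Gr10a, and 14.8 at p8, of Or10a, both in D. ananassae. At 3L Gr10a had 21.9 and 21.1 normalized counts there, from 22 and 16 reads, and was called above D. virilis and D. simulans, the only receptor called in those pairs (65.8% and 50.8% of all genes were called). At p8 Or10a and Gr10a were called above D. simulans in D. ananassae, at 15.3 and 14.3 for Or10a and 17.0 and 10.7 for Gr10a (47.4% of all genes were called). Or59b at p8 was also called lower in D. ananassae than in D. erecta and D. virilis, from 2 reads in all in D. ananassae (55.4% and 61.4% of all genes were called). Or10a had 21.9 and 10.5 in D. ananassae libraries at 3L. Every other mean at these stages was 11.5 normalized counts or less. No library had more than 22 reads of a receptor at these stages, so their differences rest on few fragments.

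At p40 the receptors were detected to unequal extents. Or42b and Gr10a were detected in D. sechellia, D. erecta, D. ananassae and D. simulans, and Or10a in D. sechellia, D. erecta and D. simulans, while Or10a of D. ananassae had a mean of 13.5 normalized counts from 24 and 8 reads. Or92a and Or85a were near 0 in every species. In D. virilis, taken at 48 hours, none was above 3.19 in the mean. D. sechellia had the highest levels of Or42b, Or10a, Gr10a and Or59b. Of 43 receptor comparisons between species 21 were called, where 48.9% of all genes were called over the same pairs, so the share called among the receptors was no higher than over all genes.

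Or42b had 269 and 309 normalized counts in D. sechellia libraries at p40, 23.9 and 25.5 in D. erecta libraries, 18.1 and 34.2 in D. ananassae libraries, 1.59 and 0 in D. virilis libraries, and 48.0 and 50.3 in D. simulans libraries, with a mean of 26.3 for D. melanogaster. D. sechellia stood above all others by more than any spread between libraries. Its log2 difference from D. simulans was 2.53 ± 0.52 (SE, limma adjusted p = 0.00606). Or10a had 316 and 260 in D. sechellia libraries, 135 and 100 in D. erecta libraries, 15.5 and 11.4 in D. ananassae libraries, and 25.3 and 59.8 in D. simulans libraries. It was at 0 in D. virilis, where 0 of the 32743192 reads of both libraries allows up to 3 reads. For Or10a D. sechellia minus D. simulans was 2.84 ± 0.43 (SE, limma adjusted p = 0.002), and D. erecta minus D. simulans was 1.56 ± 0.43 (SE, limma adjusted p = 0.0233). The D. erecta call was lost without either D. erecta library and without the first D. simulans library. It was also lost relative to Orco and relative to the other antennal Or genes.

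Gr10a had 230 and 202 normalized counts in D. sechellia libraries at p40, 128 and 121 in D. erecta libraries, 41.4 and 39.9 in D. ananassae libraries, 4.78 and 0 in D. virilis libraries, and 49.3 and 54.4 in D. simulans libraries. Its difference of D. sechellia minus D. simulans was 2.04 ± 0.68 (SE, limma adjusted p = 0.0457) and lost its call when any library of D. sechellia, D. erecta, D. ananassae or D. simulans was left out. D. erecta minus D. simulans was 1.25 ± 0.68 (SE, limma adjusted p = 0.179), although the libraries did not overlap. Or59b had 45.4 and 65.0 in D. sechellia libraries, 19.1 and 6.81 in D. erecta libraries, 0 and 5.70 in D. ananassae libraries, 3.18 and 3.20 in D. virilis libraries, and 20.0 and 13.6 in D. simulans libraries. Its D. sechellia minus D. simulans difference of 1.66 (95% interval -0.39 to 3.71) did not pass. Or92a was between 1.74 and 7.24 where it was above 0, with the highest value in D. melanogaster, and Or85a reached at most 1.16.

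In all, 3 of 6 receptors were higher in D. sechellia than in D. simulans at p40, where 20.6% of all genes were higher. Their median difference was 1.85, against 0.25 over 23 other antennal Or genes, of which 7 were higher. Of 5 receptors, 1 (Or10a) was higher in D. erecta than in D. simulans (22.2% of all genes), and Or42b alone of 5 was higher in D. sechellia than in D. erecta (14.5%). Against D. ananassae 4 of 5 were higher in D. sechellia (28.6%) and 1 of 5, Or10a, in D. erecta (25.9%). Against D. virilis 3 of 3 were higher in D. sechellia (33.5%), 2 of 3 in D. erecta (31%) and 2 of 3 in D. ananassae (29.6%). Or59b and Or10a, 2 of 5, were lower in D. ananassae than in D. simulans (18.2%), and Or42b and Gr10a, 2 of 3, were lower in D. virilis than in D. simulans (30.4%). The D. virilis values of Or42b and Gr10a come from 2 and 6 reads. The D. ananassae calls against D. simulans were lost in limma without the trend and without most single libraries. The median over all genes of D. sechellia minus D. simulans was 0.12 at this stage, which is small beside the receptor differences. Orco itself was at 171 and 155 in D. sechellia libraries and at 40.0 and 35.3 in D. simulans libraries at p40. Relative to Orco, none of the differences between D. sechellia and D. simulans in Or42b (0.41), Or10a (0.73) and Gr10a (-0.08) was called, with limma adjusted p of 0.494, 0.149 and 0.923. These values leave out the spread of Orco between libraries. Relative to the other antennal Or genes, of which 6 could be used at p40 and 19 in AA, only Or10a was called (2.19, limma adjusted p = 0.0136). Muscle markers were also high in D. sechellia at p40, with 4 of 4 above 0 in every species and a summed level of 33500.5, against 1835 to 19521 in the other species, and the eye and Johnston's organ lists were highest there too. The eye list had 4 of 4 genes above 0 and a summed level of 1476 in D. sechellia, against 27.7 to 1226 in the other species, where trp was at 0 in D. virilis and norpA and ninaC in D. simulans. The Johnston's organ list had 3 of 3 above 0 and 1937 in D. sechellia, against 183 to 1356 in the other species, with iav at 0 in D. simulans. The part of these tissues in the result was not tested.

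**Figure D4:**
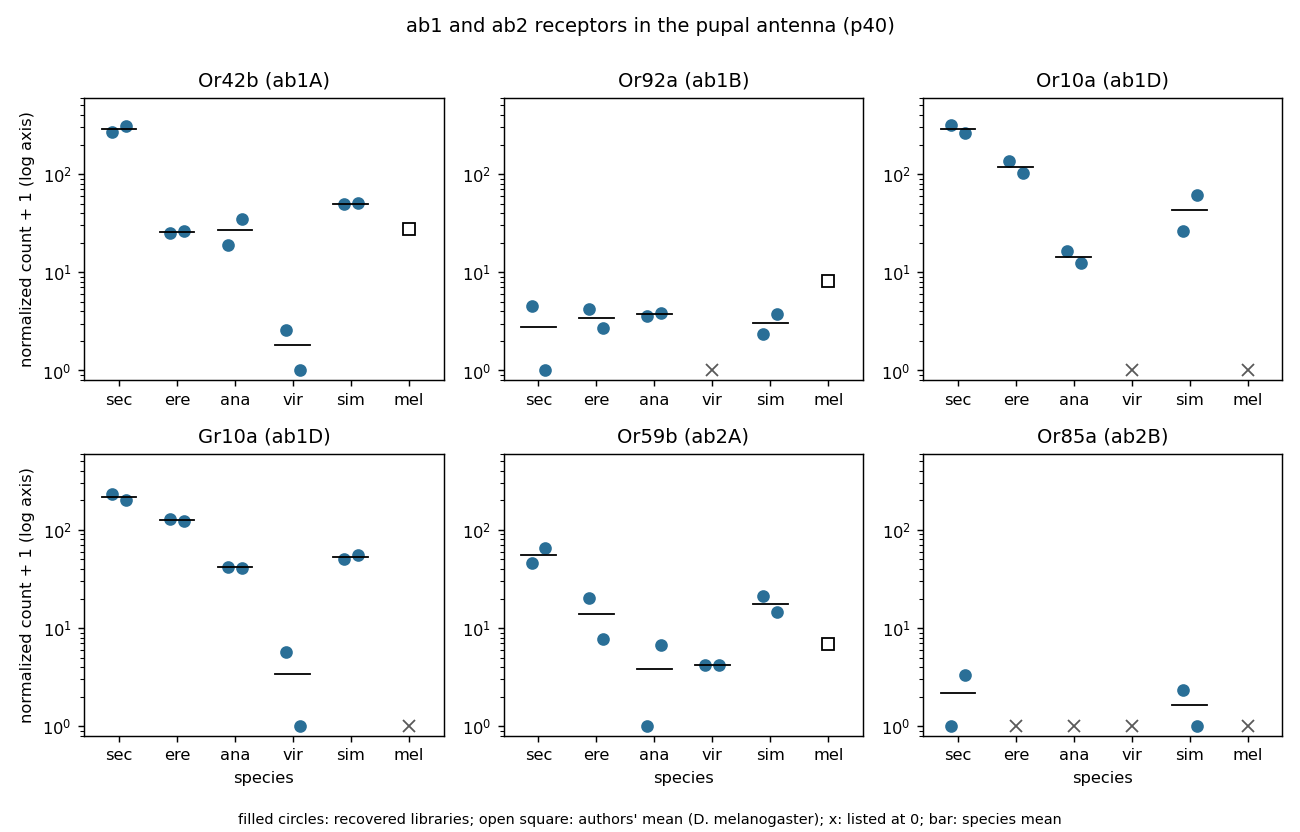
Normalized counts of the 6 receptors at p40 plus 1, on a log axis, 1 panel per gene and species on the x axis in the same order and with the same symbols as in the plot of AA levels. Or42b, Or10a and Gr10a lie at 202 to 316 in the D. sechellia libraries, while the means of Or92a and Or85a are at 7.24 or less in every species.

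The share of all counts that a receptor held at p40 was set against its share in AA, a ratio in which transcript length cancels. Or10a and Gr10a were the most advanced of the 6 in D. sechellia, D. erecta and D. simulans, and Gr10a in D. ananassae. Or10a had reached 23.1% of its AA share for D. sechellia, 24.6% for D. erecta, 1.55% for D. ananassae and 8.44% for D. simulans. Gr10a had reached 17.4% for D. sechellia, 24.1% for D. erecta, 3.86% for D. ananassae and 9.02% for D. simulans. Among the receptors at 30 or more in AA, the 2 genes held ranks 2 and 4 of 36 for D. sechellia, 2 and 3 of 38 for D. erecta, and 3 and 2 of 35 for D. simulans. In D. ananassae Gr10a held rank 3 and Or10a rank 13 of 34. The medians of the other antennal Or genes were 1.05% for D. sechellia, 0.68% for D. erecta, 0.31% for D. ananassae and 0.53% for D. simulans.

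Or42b stood at 5.92% of its AA share for D. sechellia, 1.02% for D. erecta, 1.56% for D. ananassae, 0.0951% for D. virilis and 1.77% for D. simulans. Or59b stood between 0.107% for D. ananassae and 0.818% for D. sechellia, and Or92a at 0.0831% or less in the 5 species with libraries. Both neurons of a sensillum were thus at unlike points at p40: in D. sechellia the ab1B receptor Or92a was at 0.0351% of its AA share, where the ab1A receptor Or42b was at 5.92%. In D. virilis all receptors with 30 or more in AA were at 0.155% or less, whereas the median of its other antennal Or genes was 1.77%. The CO2 receptor Gr21a of ab1C was also on at p40, at 234 and 167 normalized counts in D. sechellia libraries, 151 and 116 in D. erecta libraries, 71.2 and 34.2 in D. ananassae libraries, and 56.7 and 57.1 in D. simulans libraries. Gr21a was listed at 0 in D. virilis. Gr21a differed by 1.78 in D. sechellia minus D. simulans (limma adjusted p = 0.00911) and by 1.21 in D. erecta minus D. simulans (limma adjusted p = 0.0362). Its partner Gr63a was low, between 4.09 for D. erecta and 41.4 for D. melanogaster.

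**Figure D5:**
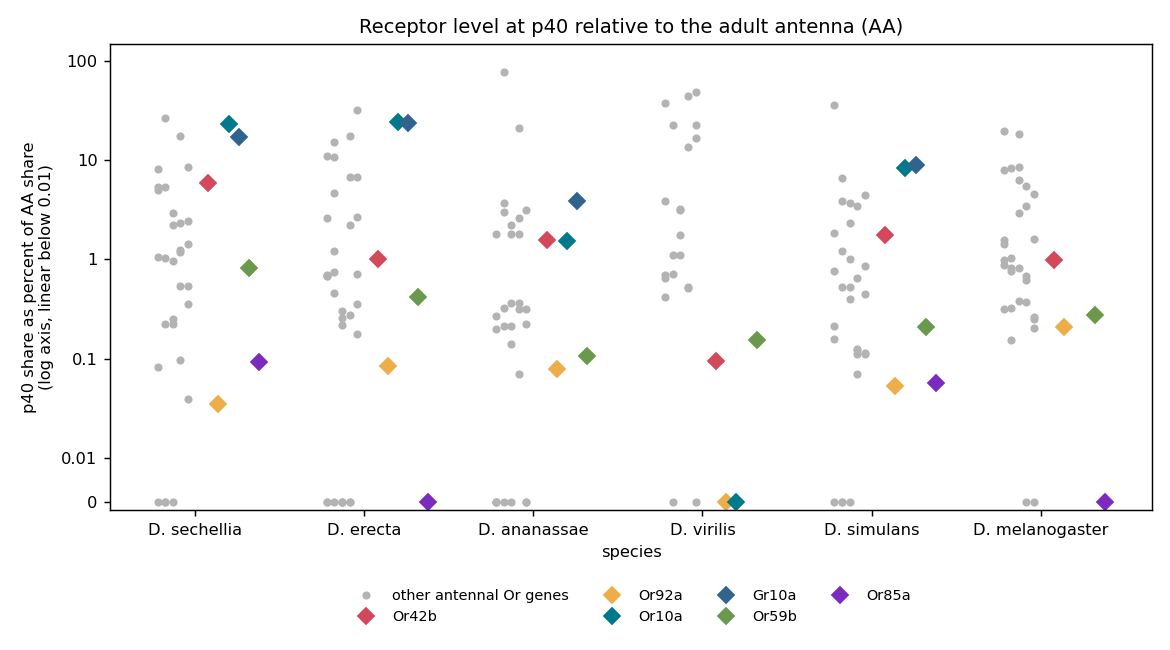
Share of a receptor at p40 as percent of its share in AA (y axis, log above 0.01 and linear below) by species (x axis), for the 6 receptors (coloured diamonds) and the other antennal Or genes (grey points) at 30 or more normalized counts in AA. Or10a and Gr10a lie at 17.4% to 24.6% in D. sechellia and D. erecta, and Or92a is at 0.0831% or less in the 5 species with libraries.

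Variability across species was described in AA with the absolute log fold change (ALFC) of the study, the mean over all pairs of species of the absolute log2 difference, with D. melanogaster included as its mean where the gene had one. Or42b, Or92a and Or59b use 6 species and 15 pairs, Or10a and Gr10a use 5 species and 10 pairs without D. melanogaster, and Or85a uses 4 species and 6 pairs without D. ananassae and D. virilis, so these values rest on different sets of species. Or92a had an ALFC of 0.50, Or85a of 0.63, Or10a of 0.72, Or42b of 0.86 and Or59b of 0.89. Gr10a had 2.37, with D. virilis the lowest species. The median of the 6 was 0.79, against 1.05 over 33 other antennal Or genes and 0.93 over 11066 genes at 30 or more in some species. The 33 include the pairs of genes with identical values in the species with libraries. Of the 33, 29 had a higher ALFC than Or92a and 3 a higher one than Gr10a. The ALFC ranged from 0.45 to 0.56 for Or92a and from 2.21 to 2.60 for Gr10a when 1 library per species was taken in all 32 ways.

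The convergence index of the study compares how far D. erecta lies from its generalist relatives D. simulans and D. melanogaster with how far it lies from D. sechellia, and a positive value means that the specialists are the more alike. It was 0.64 for Or85a, -0.06 for Or59b, -0.37 for Or92a and -0.75 for Or42b. Or85a is the receptor that D. sechellia and D. erecta held at 1215 and 1233 against 1174 for D. simulans and 518 for D. melanogaster, so its index rests on the D. melanogaster mean. No index was formed for Or10a and Gr10a, which have no D. melanogaster value.

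Gr21a and Gr63a, the remaining receptors of ab1, allow the ab1C neuron to be set beside the others in AA. Gr21a had 1598 and 1403 normalized counts in D. sechellia libraries, 980 and 1215 in D. erecta libraries, 2681 and 3103 in D. ananassae libraries, 1005 and 1149 in D. virilis libraries, and 1354 and 1416 in D. simulans libraries, with a mean of 556 for D. melanogaster. D. ananassae was the highest species. Gr63a had 2931 and 2642 in D. sechellia libraries, 1341 and 1638 in D. erecta libraries, 2972 and 3281 in D. ananassae libraries, 582 and 641 in D. virilis libraries, and 1733 and 1850 in D. simulans libraries. The difference of D. sechellia minus D. simulans was 0.64 for Gr63a (limma adjusted p = 0.00238, and 0.0106 without the library rich in eye RNA) and 0.11 for Gr21a (limma adjusted p = 0.529). D. ananassae was higher than D. simulans in both, by 1.06 for Gr21a and 0.80 for Gr63a, which is also the direction of Or10a and Gr10a of the ab1D neuron and not that of Or42b.

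The 12 transcription factors that the study links to ab1 or ab2 were compared at each stage between each specialist and D. simulans. With Orco, Gr21a and Gr63a the list has 15 genes, and 49 of 103 tests over the 8 comparisons were called. Of the factors tested, 4 of 10 were called in D. sechellia at 3L, 5 of 11 at p8, 6 of 11 at p40 and 7 of 9 in AA, where 44.1%, 44.4%, 38.3% and 42.8% of all genes were called. In D. erecta 4 of 10 were called at 3L, 4 of 11 at p8, 5 of 11 at p40 and 6 of 10 in AA, where 52.9%, 52%, 42.9% and 54.5% of all genes were called. The share was farthest above the background in AA of D. sechellia, where 5 of 9 were called without the library rich in eye RNA. Fer1 and onecut lost their calls there (limma adjusted p = 0.180 and 0.128).

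The nuclear factor dac, which patterns the antennal disc along its axis, was higher than in D. simulans at all 4 stages in both specialists. The generalist D. ananassae was also called above D. simulans for dac at all 4 stages, and D. virilis at p8, p40 and AA. At p40 dac had 1097 and 965 normalized counts in D. sechellia libraries, 944 and 818 in D. erecta libraries, and 236 and 230 in D. simulans libraries. The Runx factor lz, needed for basiconic sensilla, was higher in D. sechellia at all 4 stages and in D. erecta at 3L, p8 and AA. Calls of lz above D. simulans were also made in D. ananassae at 3L, p8 and AA and in D. virilis at 3L and p8. The POU factor acj6, which specifies receptor choice, was higher at p40 in both specialists, by 1.74 in D. sechellia (limma adjusted p = 0.000566) and by 2.11 in D. erecta (limma adjusted p = 0.000168), and again in AA, by 0.50 and 0.71. It was also called above D. simulans in D. virilis at p40 and AA, and below it in D. ananassae at both stages. The paired BTB factors bab1 and bab2 were lower in AA in both specialists. In AA bab2 was also called below D. simulans in D. ananassae and D. virilis, whereas bab1 was called above it in D. virilis. Lower too were bab2 in D. sechellia at 3L (-0.88), p8 (-0.76) and p40 (-0.89), bab1 in D. sechellia at p40 (-1.04) and bab1 in D. erecta at 3L (-1.12). Among the generalists, bab2 was also called below D. simulans in D. virilis at 3L, p8 and p40, and bab1 in D. ananassae at 3L. In D. virilis bab1 was called above D. simulans at 3L, p8 and p40. For bab2 in AA the difference was -1.89 in D. sechellia (limma adjusted p = 8.23e-07) and -0.63 in D. erecta (limma adjusted p = 0.000399). It had 1173 and 1143 normalized counts in D. sechellia libraries, 2591 and 2970 in D. erecta libraries, and 4249 and 4333 in D. simulans libraries.

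The bHLH factor Fer1 was higher at p40 in both specialists, and in AA it was lower in D. sechellia (-0.33) and higher in D. erecta (0.50). In AA Fer1 was also called above D. simulans in D. ananassae. The proneural gene amos, which acts in the choice of olfactory precursors, was higher at p8 in D. sechellia (1.28) and in D. erecta (0.64). At p8 amos was also called above D. simulans in the generalists D. ananassae and D. virilis. The homeobox gene onecut was higher at p8 in both specialists and at p40 in D. erecta (0.50), and lower in AA in D. sechellia (-0.44). In AA onecut was also called below D. simulans in D. ananassae. The zinc finger gene zf30C was higher in D. sechellia at 3L (0.25), and the LIM-homeobox gene ap was higher in D. erecta at 3L (0.70) and lower at p40 (-0.74). In D. virilis ap was called above D. simulans at 3L, p40 and AA. Orco was already higher than in D. simulans at 3L and p8 in both specialists, at 43.0 and 20.7 in D. sechellia libraries, 36.7 and 42.0 in D. erecta libraries, and 3.14 and 1.97 in D. simulans libraries at 3L. The Orco means of the generalists were above that of D. simulans too. At 3L they were 33.3 in D. virilis, 27.7 in D. melanogaster and 5.30 in D. ananassae, against 2.56 in D. simulans. At p8 they were 46.4 in D. virilis, 23.0 in D. melanogaster and 15.7 in D. ananassae, against 4.96 in D. simulans.

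The genes most like each receptor across species in AA were found as those with the smallest root mean square difference of centred log2 means, among 5917 genes at 50 or more in all 6 species. They are named only as a description of these means, over the species in which the receptor had a value. Or42b was nearest to JTBR (0.11), CG1074 (0.18) and lft (0.20), and Or92a to CG8531 (0.10), the forkhead gene slp1 (0.10) and the mitochondrial factor AIF (0.10). Or10a, over 5 species, was nearest to the phospholipase gene GXIVsPLA2 (0.08), CG7214 (0.17) and the Elongator gene Elp3 (0.19). Gr10a had no close match, with veil (0.70), GV1 (0.72) and the kinase gene IP3K2 (0.74), all low in D. virilis. Or59b was nearest to CG5946 (0.20), Edem1 (0.22) and CG8915 (0.26), and Or85a, over 4 species, to the splicing gene Caper (0.04), CG7427 (0.06) and the exchange factor gene Exn (0.06). The nearest other antennal Or gene was Or43a for Or42b (0.36), Or67d for Or92a (0.39) and for Or10a (0.20), Or13a for Gr10a (1.16), Or9a for Or59b (0.53) and Or23a for Or85a (0.22).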

How the data were processed

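The authors mapped reads of stranded mRNA libraries to each species' transcriptome with BWA 0.7.8 after base calling with CASAVA 1.8, gave transcripts gene names by ortholog calls, kept the highest expressed transcript where a gene had several orthologs, and normalized the counts with DESeq2 within each stage. The deposited values are signal, that is, species means of normalized counts in 24 columns, 4 of them of D. melanogaster, whose libraries were not analysed here. The genome build is that of each species' transcriptome and no coordinates were used.

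Each mean was split into the whole read counts of its 2 libraries, given their size factors, and 97.2% to 100% of values per column had a unique solution. On simulated data 98.96% (10 digits) and 99.93% (15 digits) of values were solved, all of them rightly. Orco in AA was not solved. Levels relative to Orco used its species mean at every stage, so adjusted p-values in that setting leave out its spread between libraries. A species mean of 0 was treated as missing, while a recovered library value of 0 under a mean above 0 was kept in the tests. Stages were normalized apart, so no test ran across stages.

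The main test was limma 3.58.1 (R 4.3.3, eBayes with trend) on log2(value + 1) over the 10 libraries of a stage, two-sided, with Benjamini-Hochberg adjustment over all genes above 0 in both species and calls below 0.05. In simulated counts for D. sechellia minus D. simulans in AA (4794 genes) 32 of 45 changes of 1.5-fold and 44 of 45 of 2-fold were called, with 7 of 4609 unchanged genes. Ratios were tested by exact permutation over pairings of libraries (Python 3.11.15, numpy 2.4.6, pandas 2.3.3, scipy 1.17.1, figures with matplotlib 3.10.9). The labels only number the libraries of a group, and the study describes them as pools with biological replicates. Nothing says that the pools were of separate cultures, so p-values measure the spread between these samples.

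Named were the 6 receptors, Orco, Gr21a and Gr63a, the 12 transcription factors where called in a contrast given, and for each receptor the 3 nearest genes and the nearest other antennal Or gene. Marker genes are named where libraries stood apart. The members and lists were chosen with earlier results of these data known. Alternatives were other pseudocounts, a filter at 10, other scalings, limma without trend, fits of 2 species and leaving out each library. No sequence or transcript length was used here.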

Additional observations from a re-analysis of the deposited data

Results flagged for a closer look

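A few contrasts pointed in opposite directions at p40 and in AA, with every library of a species on the same side of the other species at each stage. The difference between stages was not tested, since the stages were normalized apart. Or10a stood out most. For D. erecta minus D. ananassae its log2 difference was 3.04 at p40 (limma adjusted p = 0.000959) and -0.88 in AA (limma adjusted p = 0.00019). For D. ananassae minus D. simulans it was -1.48 at p40 (limma adjusted p = 0.0324) and 0.92 in AA (limma adjusted p = 0.000186). In D. ananassae Or10a was thus among the lowest at p40 and among the highest in AA.

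Gr10a, which marks the same neuron, gave 1.59 at p40 (limma adjusted p = 0.0851) and -1.05 in AA (limma adjusted p = 0.00271) for D. erecta minus D. ananassae. For D. ananassae minus D. simulans Gr10a gave -0.34 at p40 (limma adjusted p = 0.735) and 1.0 in AA (limma adjusted p = 0.00415). Or59b gave 1.66 at p40 (limma adjusted p = 0.174) and -0.29 in AA (limma adjusted p = 0.0527) for D. sechellia minus D. simulans, and passed the test at neither stage.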

How the results depend on the processing

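The count of receptor comparisons called in AA, 38, ranged from 35 to 40 when single libraries were left out and fell to 30 relative to the other antennal Or genes. At p40 the count of 21 ranged from 17 to 23 without single libraries, was 29 with a pseudocount of 10 and 27 relative to Orco. The count of 49 calls among the co-receptor, CO2 receptor and transcription factor genes ranged from 40 to 52. The ratio tests made 3 calls of 4 under each alternative run. Signs turned only against D. virilis in AA and for 2 contrasts at p40. In AA, for D. erecta minus D. virilis, Or10a gave -0.49 relative to Orco and -0.71 relative to the other antennal Or genes, Or59b gave -0.22 and -0.43 in the same settings, and Or92a gave -0.0696 relative to the other antennal Or genes. For D. ananassae minus D. virilis, Or42b gave -0.0139 and -0.15, and Or59b -0.65 and -0.78. For D. virilis minus D. simulans Or10a gave 0.76 and 0.90. At p40, relative to Orco, Gr10a gave -0.0785 for D. sechellia minus D. simulans and Or42b gave 1.66 for D. erecta minus D. ananassae. Both settings divide by genes that differ between species themselves. The median ALFC of the 6 receptors, 0.79, was 0.675 without D. virilis, 0.697 relative to Orco, 0.753 without D. sechellia, and 0.774 to 0.809 without single libraries. The median percentile of the receptors in AA, 85.4, was 81.7 among genes above 0 in all 6 species, and their median share, 108 of 1000000 counts, was 119.8 without the 10 highest genes. The settings relative to the other antennal Or genes and without D. sechellia were chosen after seeing the data. No paired analysis was possible because the deposited means carry no replicate numbers and the recovered libraries cannot be matched to them. With 2 libraries per group, receptors near 0 at 3L, p8 and p40 give differences that few reads decide.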
